A study of Drosophila melanogaster with 18 samples.

Results

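CR genes are genes that the *Drosophila* annotation lists under the letters CR and a number, the form used for genes whose transcripts carry no annotated protein. Most of them are long noncoding RNAs. The table holds values for 609 such genes, and a CR gene was kept where its signal reached 10 or more in at least 6 of the 18 libraries, with identical rows of a gene taken once. This gave 54 rows of 45 genes, which is 7.39% of the CR genes, among 10031 rows of 8108 genes tested in the same way. A row stands for the transcripts of 1 gene with the same values in all 18 libraries, and 9 of the 45 genes had 2 rows. The 2 rows of a gene can share a 3′ end, as they do in CR44127. The genes were thus chosen by the level of their signal in these libraries, and the levels below are a description.

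The libraries were made from heads of *D. melanogaster* Canton-S, a wild-type laboratory strain, and the sex of the flies is not given in the sources used here. The flies had been kept for 3 days or more in the light cycle at 1 of 3 temperatures (18°C, 25°C, 29°C) before heads were taken at ZT3, ZT7, ZT11, ZT15, ZT19 and ZT23 (hours after lights on). Libraries of 3′ RNA-seq, which reads the ends of polyadenylated RNA, were made, and 1 library for each temperature and time point was analysed here, so the 6 time points served as the replicates of a temperature. The study describes further replicates of these time points, which were not used here, so the spread between separate fly collections of a time point was not measured. The signal is a read number divided by a constant of the library, and the estimated depth ran from 1.24 to 6.61 M reads (median 3.11 M). A signal of 10 stood for between 4.08 and 19.4 reads. Of the marker genes, all 7 photoreceptor and all 6 measured neuronal ones were tested, while none of the 7 testis or 5 ovary markers reached the level for testing. The summed testis and ovary markers still reached 68.7 and 45.5 in a 29°C library, where the medians were 0 and 0.515. At 18°C these sums were at most 8.25 and 13.7, and at 25°C 0 and 2.21.

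Long noncoding RNAs are transcribed and, when captured here, polyadenylated like messenger RNAs, but they act as RNA, through the act of their transcription, or in no way yet described. Antisense RNAs are transcribed across a gene on the opposite strand and can affect that gene in some cases. Because 3′ RNA-seq counts only the last stretch of a transcript, a noncoding RNA that ends beside a coding gene can receive the reads of that gene, so the neighbours of each CR gene are given with it.

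RefSeq names 29 of the 45 genes as lncRNA and 8 as antisense RNA. A pair of genes, CR32205 and CR32207, are listed as hpRNA, long hairpin RNAs of the kind that gives rise to endogenous siRNAs in flies. CR43051 is now listed as protein coding, CR40677 as an rRNA pseudogene (2SrRNA-Psi), and 4 genes on unplaced sequence (CR40685, CR40743, CR41619 and CR41620) had no match. Under their later names, CR31451 is *mimi*, CR43653 is *Irar*, CR43432 is *marge* and CR43283 is *cherub*, a lncRNA known from fly neural stem cells and brain tumours. By the positions in the table, 16 genes overlap another gene on their own strand, 19 overlap a gene on the other strand, 5 of these on both, and 15 overlap none.

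Levels spanned 4 orders of magnitude. The mean signal exceeded 1000 in 4 genes, lay between 100 and 1000 in 9, between 20 and 100 in 13, and was at most 20 in the remaining 19. The median over the 45 genes was 24.5, against 58.1 over all tested rows. Only 22 of the genes reached a signal of 10 in all 18 libraries. The other end of the range was not measured: 319 CR genes were listed at 0 in every library and 90 reached 10 in any.

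**Figure D1:**
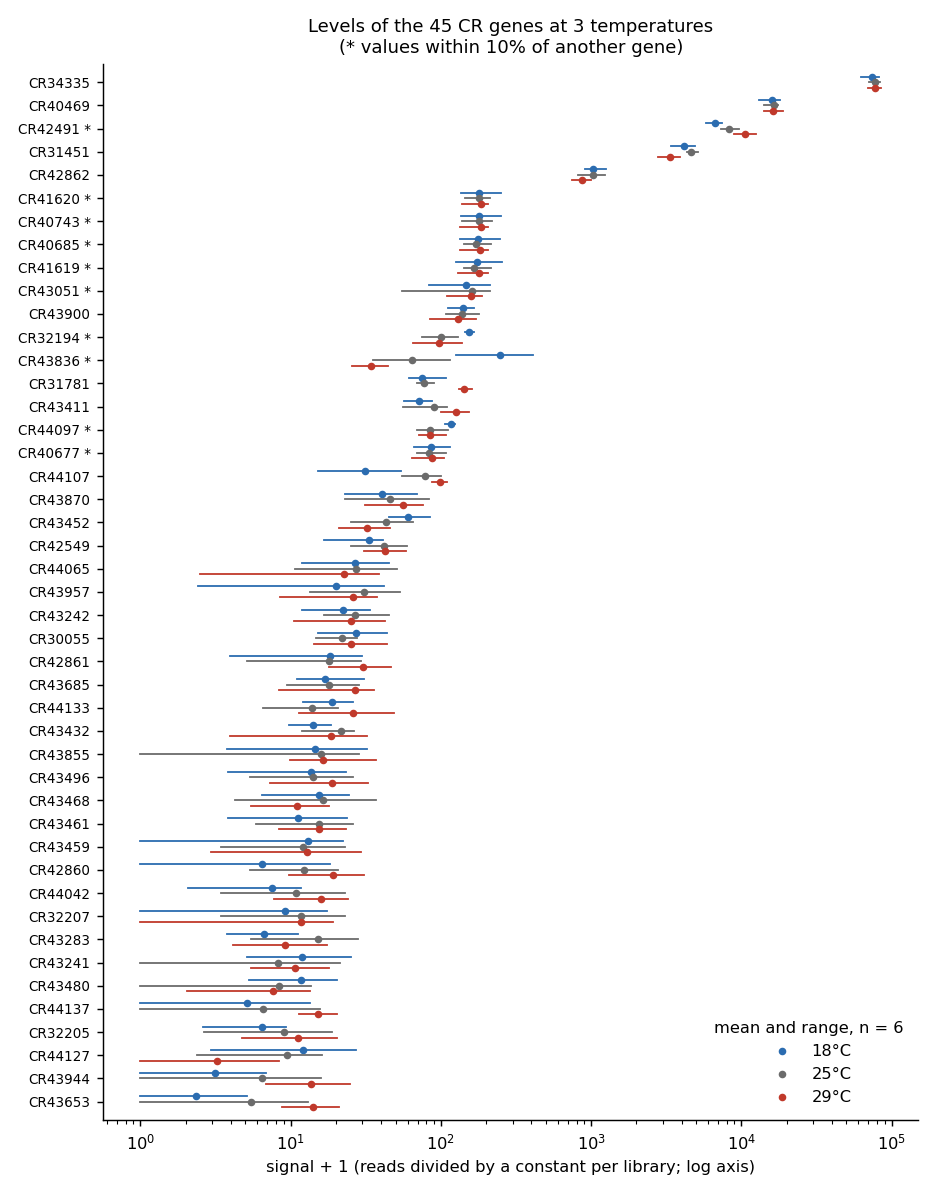
Mean signal plus 1 (point, log axis) and range over the 6 libraries (line) of each of the 45 CR genes in the 3 temperatures (blue 18°C, grey 25°C, red 29°C), in order of mean level. CR34335, CR40469, CR42491 and CR31451 stand above 1000, the ranges of the 3 temperatures overlap for most genes, and CR43836, CR44107, CR31781 and CR43653 are among those whose 18°C and 29°C ranges are apart.

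CR34335 was by far the highest. This lncRNA of 249 bases lies on the minus strand at chrX:3439895-3440143 (dm3, as for every position here), and its only neighbour on that strand, CG32791, has a 3′ end 34525 bases away. Its signal ran from 62908 through a median of 76201 to 82978 at 18°C, from 70499 through 78037 to 83661 at 25°C, and from 69745 through 78229 to 85518 at 29°C. The 3 ranges lay almost on top of each other. CR34335 alone took between 1.57% and 2.78% of a library's total signal, while all 45 genes together took between 2.28% and 3.90%. The log2 difference between 29°C and 18°C was 0.08 ± 0.09 (limma, estimate ± SE; Benjamini-Hochberg adjusted p = 0.576).

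CR40469, a lncRNA of 214 bases at chrX:18880-19093 on the plus strand with no overlapping gene, was next. Its signal ran from 13163 to 18049 at 18°C (median 16633), from 14206 to 17611 at 25°C (median 17159) and from 14083 to 18805 at 29°C (median 16295). The ranges overlapped throughout, and the 29°C to 18°C difference was 0.03 ± 0.09 (limma adjusted p = 0.855). For CR34335 and CR40469, 8 of the 18 values each were not whole numbers of reads. Both genes had their lowest signal in the ZT23 library of 18°C, and whether they share reads was not tested.

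CR42862 is a lncRNA at chr3L:224106-230964 on the plus strand, overlapping CG33229 on the same strand. Its medians were 1012 at 18°C, 1034 at 25°C and 884 at 29°C, and the full ranges were 915 to 1252, 822 to 1231 and 741 to 993. The 29°C libraries extended lower but overlapped both other groups. The difference of -0.25 ± 0.11 to 18°C did not pass the test (limma adjusted p = 0.10).

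Not every CR gene had values of its own. For each gene, the absolute differences to every row of another gene were summed over the 18 libraries and set against the CR gene's own total. In 10 of the 45 genes another gene came within 10% by this measure, a threshold chosen after the values were seen, and the other 35 differed from every other gene by 10.5% or more. Of these 35, only CR43459 had an overlapping gene as its most similar one, the microRNA gene *mir-277*, and there the difference was 34.8%. The measure finds only genes of like level. Reads shared between genes of unlike level, for example between CR34335 and CR40469, would be missed and were not looked for. Below, values of its own means only that no other gene came within 10%.

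**Figure D2:**
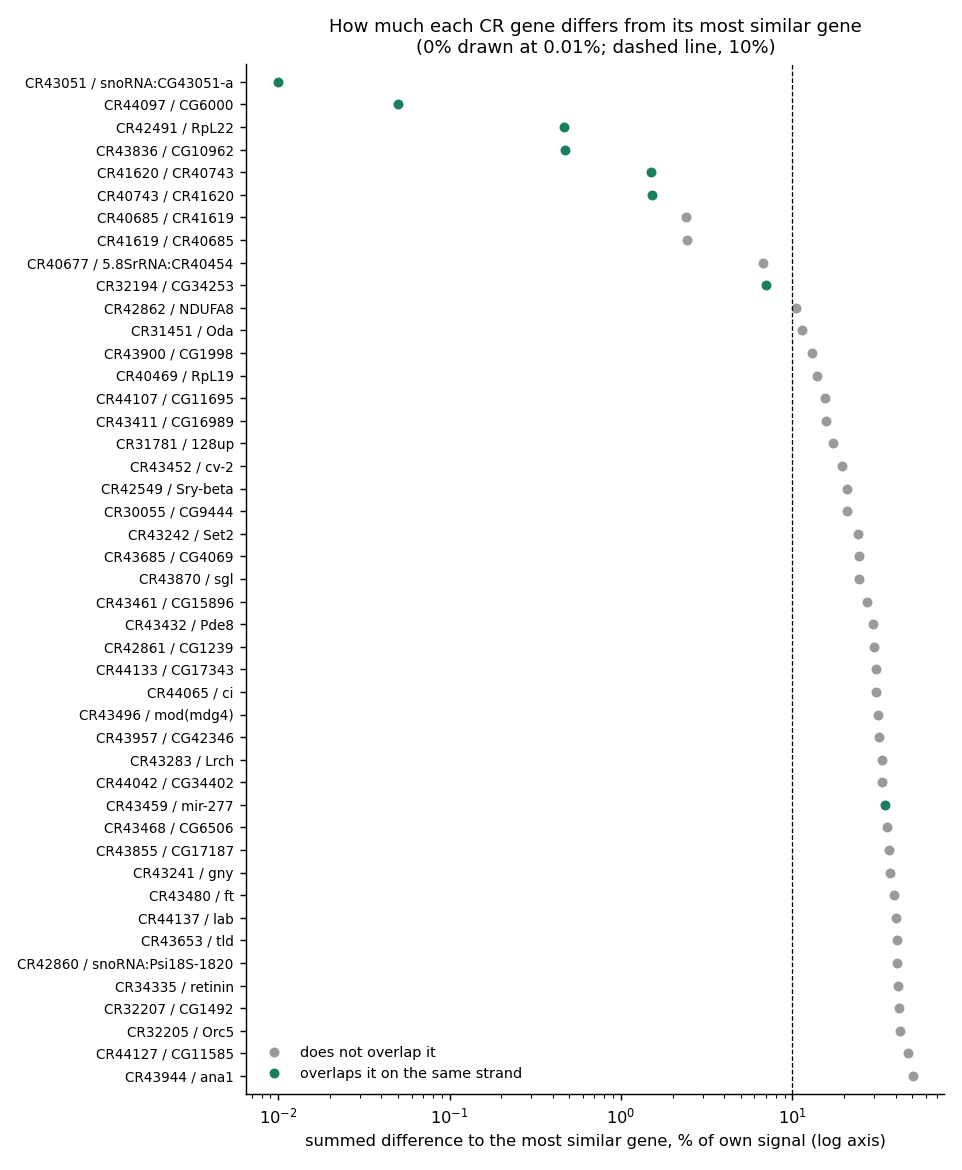
Summed absolute difference over 18 libraries between each CR gene and the gene of another name whose values are most like it, as a percentage of the CR gene's own signal (log axis, 0% drawn at 0.01%). The 10 genes left of the dashed line at 10% range from 0% to 7.0%, and 7 of them overlap the gene they resemble on the same strand (green).

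CR43051 had the very values of *snoRNA:CG43051-a*, a small nucleolar RNA within it (difference 0%). CR44097 differed from CG6000 by 0.05%, and their 3′ ends lie 58 bases apart. CR42491 differed from *RpL22*, which encodes a large-subunit ribosomal protein, by 0.466%, with 3′ ends 55 bases apart. CR43836 differed from CG10962 by 0.474%, and both end at the same base. CR32194 differed from CG34253 by 7.0%, with 3′ ends 1369 bases apart. For these genes other than CR32194, reads of the CR gene and of the neighbour cannot be told apart or can be told apart only in small part. How far CR32194 and CG34253 share reads was not tested.

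The other 5 genes of this kind resemble ribosomal RNA or each other. CR41620 and CR40743, which overlap on unplaced sequence, differed by 1.5%, CR40685 and CR41619 by 2.39%, and the 2S rRNA pseudogene CR40677 differed from *5.8SrRNA:CR40454* by 6.75%. In these 5 genes between 15 and 18 of the 18 values were not whole numbers of reads. CR41620, at chrU:9844213-9844736, was the sixth highest gene of all, with a mean signal of 181. Its medians were 173 at 18°C, 179 at 25°C and 191 at 29°C, and the ranges of 135 to 250, 145 to 213 and 137 to 207 overlapped throughout (29°C to 18°C difference 0.05 ± 0.15, limma adjusted p = 0.855). None of the 5 passed the test in any temperature comparison.

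To ask which CR genes respond to ambient temperature, temperatures were set against each other, with time points as replicates, in limma on log2(signal + 1), and p-values were adjusted over all 10031 rows. Between 29°C and 18°C, 16 of the 54 rows (29.6%, from 14 genes) passed, beside 24% of all tested rows. Of these, 9 rows of 8 genes were higher at 29°C, beside 10.6% of all rows, and 7 rows of 6 genes were lower, beside 13.4%. For 18°C and 25°C, 5 rows of 5 genes (9.26%) passed, beside 11.6% of all rows, with 3 higher at 18°C (beside 7.22%) and 2 lower (beside 4.34%). Between 29°C and 25°C, 3 rows of 3 genes (5.56%) passed, beside 2.27%, with 2 higher at 29°C (beside 0.897%) and 1 lower (beside 1.38%). In the comparisons with 18°C the share of CR rows that passed was near that of all rows, and between 29°C and 25°C it rests on 3 rows. The median log2 difference between 29°C and 18°C was 0.18 over the 54 rows and 0.04 over all rows. The balance of directions depends on the scaling: for 18°C against 25°C 62.5% of all calls were higher in the cold, and 33.3% after division by library size, while for 29°C against 18°C 44.1% were higher in the warmth, and 61.6% after that division. For CR rows, the same division gave 2 of 5 and 9 of 14 higher. The 3 comparisons share their libraries pairwise and are not independent.

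**Figure D3:**
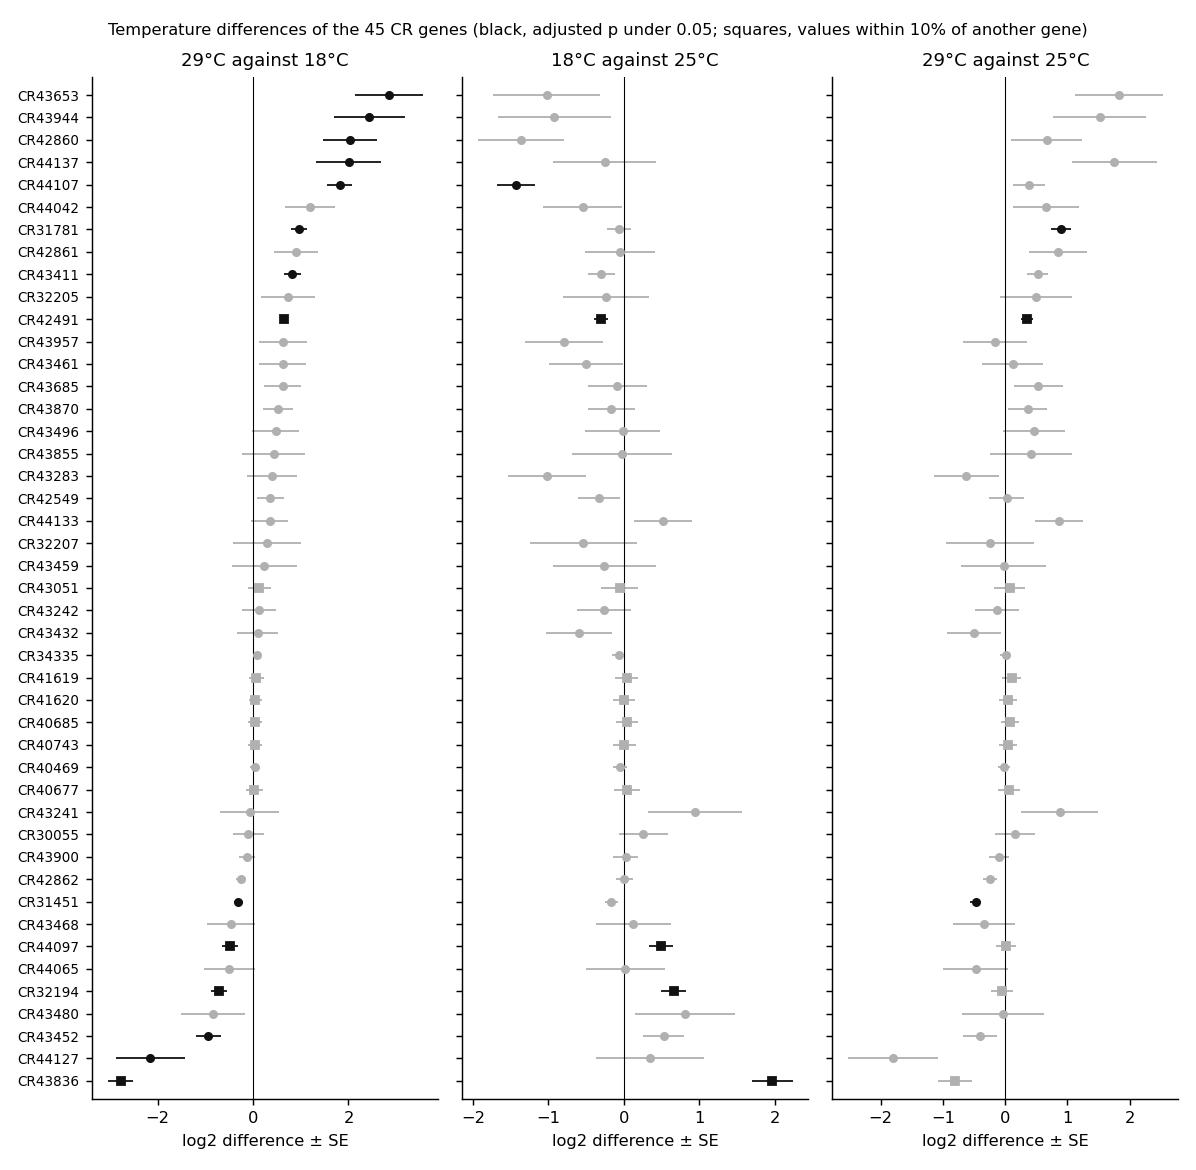
Log2 difference ± SE of the 45 CR genes in the 3 temperature comparisons, ordered by the difference between 29°C and 18°C (limma, 6 libraries per temperature; black, adjusted p under 0.05; squares, genes whose values lie within 10% of another gene). Black points number 14, 5 and 3 from left to right, and the wide error bars belong to genes of low level.

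Some measures of the whole libraries moved with temperature as well. The yolk protein genes, made in female fat body, took 14.2% ± 3.90 of the signal at 18°C, 7.47% ± 1.39 at 25°C and 4.19% ± 0.947 at 29°C (mean ± SD, n = 6). The summed signal of all 6 fat body markers ran from 313908 to 761253 at 18°C and from 102717 to 206198 at 29°C, and that of the 4 muscle markers from 20894 to 29091 and from 11981 to 14789. The 7 photoreceptor markers went the other way, from 63707 to 79783 at 18°C and from 113510 to 139748 at 29°C. The 4 glial markers ran from 3876 to 4882 at 18°C and from 2718 to 3308 at 29°C, and the 6 neuronal markers overlapped, from 1345 to 1768 and from 1400 to 1760. *roX1* and *roX2* are male-specific noncoding RNAs of X chromosome dosage compensation. *roX1* overlapped between the temperatures, from 642 to 3275 at 18°C and from 2652 to 3583 at 29°C, while *roX2* ran from 3.92 to 70.5 at 18°C and from 159 to 229 at 29°C. In whole heads, fewer cells of a type and less RNA per cell cannot be told apart, and the part that cell makeup or the share of males and females had in the differences below was not tested.

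The best-measured CR genes that were higher at 29°C and had values of their own were CR44107, CR31781 and CR43411. CR44107 is an antisense RNA (chr3R:14974844-14975279, plus strand) across CG5835. Its signal ran from 14.1 through a median of 27.5 to 52.9 at 18°C, from 54.3 through 81.0 to 98.9 at 25°C, and from 86.5 through 101 to 109 at 29°C. Every 18°C library lay below every library of the other temperatures. It was 3.51-fold higher at 29°C than at 18°C (log2 difference 1.81 ± 0.25, limma adjusted p = 2.8e-06) and 2.70-fold lower at 18°C than at 25°C (-1.43 ± 0.25, adjusted p = 0.000218), with the same direction at 6 of 6 time points in each. The step from 25°C to 29°C, of 0.38, did not pass (adjusted p = 0.537). CG5835, the gene on the other strand, had means of 53.0 ± 11.3 at 18°C, 77.8 ± 32.5 at 25°C and 55.8 ± 7.35 at 29°C, and its own 29°C to 18°C difference was 0.09 ± 0.23 (adjusted p = 0.832). Whether the counting used the strand of a read is not given in the sources used here, so for every antisense pair the share of reads that comes from either strand cannot be told apart.

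CR31781 is a lncRNA that spans chr2L:16869462-16878300 on the plus strand and overlaps no other gene in the table. Its 18°C libraries ran from 60.5 through 64.0 to 107, those of 25°C from 68.7 through 73.0 to 89.6, and those of 29°C from 132 through 140 to 160. The 29°C libraries stood clear of all the others, which overlapped each other. The gene was 1.95-fold higher at 29°C than at 18°C (0.96 ± 0.16, limma adjusted p = 4.0e-05) and 1.87-fold higher than at 25°C (0.90 ± 0.16, adjusted p = 0.00295), while 18°C and 25°C differed by -0.06 (adjusted p = 0.868). No alternative setting or left-out library ended either call.

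CR43411, a lncRNA at chr2L:14613258-14613621 on the plus strand, lies across *outspread* (*osp*) on the other strand. It ran from 55.8 through 69.0 to 85.7 at 18°C, from 55.2 through 89.9 to 109 at 25°C, and from 99.1 through 128 to 153 at 29°C. The 18°C and 29°C libraries did not overlap, and 25°C lay across both. The 29°C level was 1.77-fold that at 18°C (0.82 ± 0.17, limma adjusted p = 0.000697). *osp* itself had means of 23.3 ± 5.60, 13.2 ± 7.35 and 29.9 ± 10.3 from the coldest to the warmest, with a 29°C to 18°C difference of 0.30 ± 0.36 (adjusted p = 0.614).

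Another 4 genes higher at 29°C were scarce, and all of them lie across a coding gene on the other strand. CR43653, or *Irar*, at chr3R:17418072-17420574 on the plus strand, overlaps *InR*, which encodes the insulin receptor. Its signal at 18°C was at most 4.12, which is 0 to 3 reads per library. At 25°C it ran from 0 through 2.42 to 12.1 and at 29°C from 7.75 through 12.9 to 20, or 8 to 23 reads. The 18°C and 29°C libraries did not overlap. The fitted log2 difference was 2.85 ± 0.71 (limma adjusted p = 0.00319), and with so few reads its size depends on the pseudocount, from 1.52 with 5 to 3.94 with 0.25. *InR* went in the same direction, with means of 43.3 ± 15.7 at 18°C, 50.6 ± 15.4 at 25°C and 69.8 ± 10.5 at 29°C (0.74 ± 0.24, adjusted p = 0.0231).

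The antisense RNA CR43944 (chr3L:20382951-20384487, minus strand) lies across *fbl*, which encodes the pantothenate kinase fumble. It ran from 0 through 1.39 to 5.88 at 18°C, from 0 through 3.18 to 14.9 at 25°C, and from 5.81 through 12.5 to 23.9 at 29°C. The extreme groups touched but 29°C was higher at 6 of 6 time points (2.44 ± 0.75, limma adjusted p = 0.0162). The antisense RNA CR42860 (chr3L:2088166-2089626, plus strand) lies across *sls*, the gene of the titin-like muscle protein sallimus. It ran from 0 through 3.04 to 17.1, from 4.35 through 10.3 to 19.6, and from 8.75 through 18.5 to 30.0 at the 3 temperatures in rising order, with overlap between 18°C and 29°C (2.04 ± 0.57, adjusted p = 0.00849). The antisense RNA CR44137 (chr3R:7462899-7464275, plus strand) lies across *Csk*, which encodes a kinase that restrains Src kinases. It ran from 0 through 3.51 to 12.4, from 0 through 4.49 to 14.7, and from 10.4 through 14 to 19.4 (2.01 ± 0.68, adjusted p = 0.0301). That call was lost, with adjusted p between 0.0501 and 0.0788, with a pseudocount of 0.25 and without the ZT7 or ZT19 library of 18°C or the ZT7, ZT11, ZT19 or ZT23 library of 29°C.

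The sizes of these 3 differences also depend on the pseudocount. Between pseudocounts of 5 and 0.25 they ran from 1.29 to 3.46 for CR43944, from 1.26 to 2.52 for CR42860 and from 1.19 to 2.53 for CR44137.

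The genes opposite CR43944, CR42860 and CR44137 did not pass the same test. Between 29°C and 18°C, *fbl* differed by 0.04 ± 0.20 (limma adjusted p = 0.916), *sls* by 0.01 ± 0.22 (adjusted p = 0.976) and *Csk* by -0.01 ± 0.28 (adjusted p = 0.993). For *fbl* and *sls*, which have several tested rows, the row of highest mean was used. The difference between each antisense RNA and its opposite gene was not itself tested.

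By position, 6 of the 14 CR genes that overlap a gene only on the other strand were higher at 29°C than at 18°C and 0 were lower, beside 10.6% and 13.4% of all rows. Among the 15 genes with no overlap 1 was higher and 3 were lower, and among the 16 with overlap on their own strand 1 was higher and 3 were lower. These counts are a description, and 4 of the 6 are the scarce genes. The scarce genes passed the level for testing largely through the libraries in which they were high: CR43653 reached a signal of 10 in 5 libraries at 29°C, 1 at 25°C and 0 at 18°C, CR43944 in 4, 2 and 0, CR42860 in 5, 3 and 1, and CR44137 in 6, 1 and 1. In a fit on the rows whose mean signal over all 18 libraries was at least 20, 9 of the 30 CR rows left (30.0%) passed between 29°C and 18°C, beside 27.9% of all 8291 rows.

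**Figure D4:**
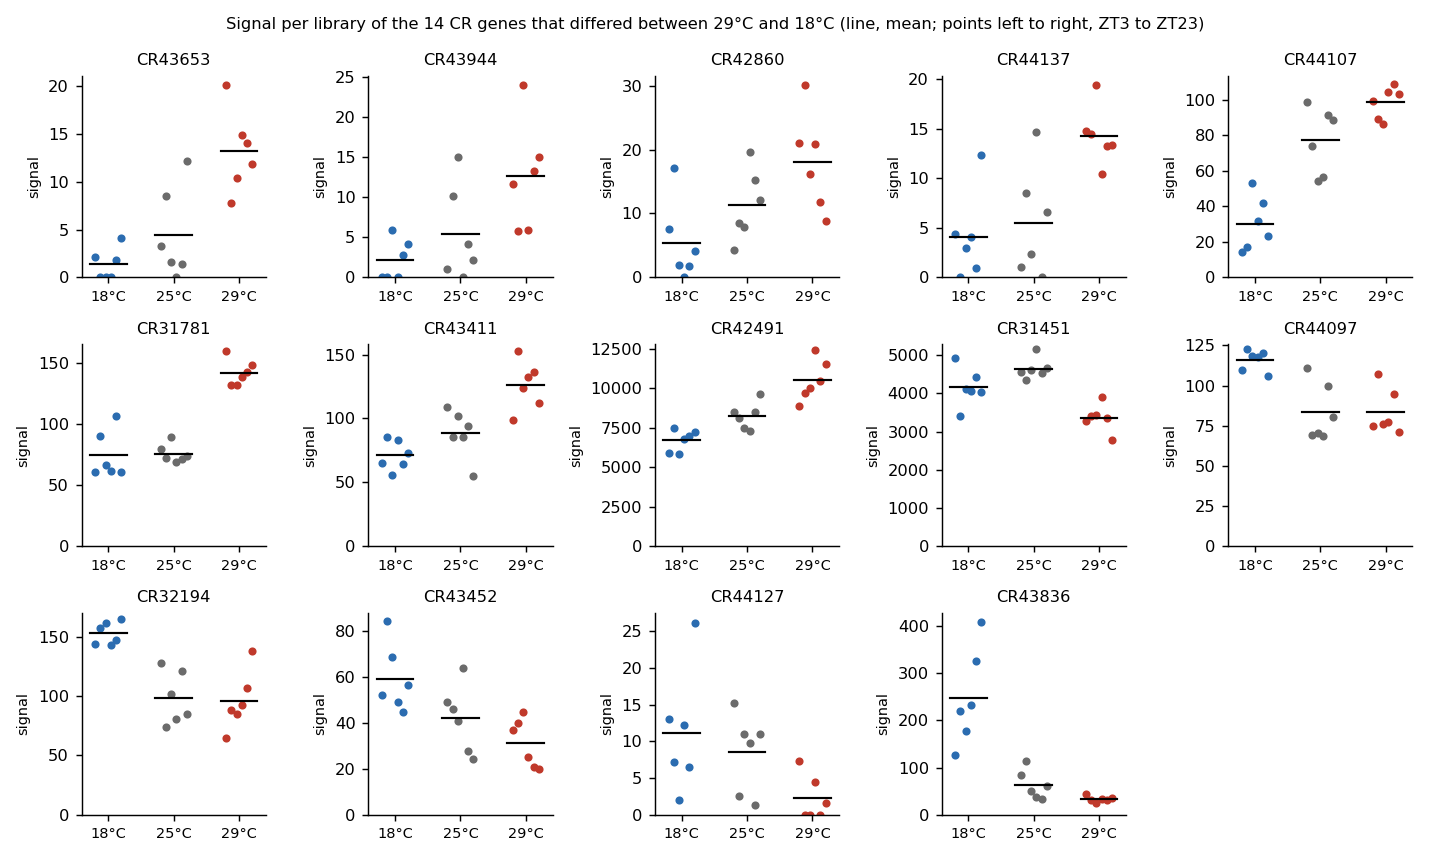
Signal in each library (points, from left to right ZT3 to ZT23 within a temperature) and its mean (line) for the 14 CR genes that passed the test between 29°C and 18°C, from the most raised to the most lowered; every axis starts at 0. CR44107, CR31781, CR43411 and CR42491 show 29°C libraries wholly above those of 18°C at a well-measured level, and CR43836 and CR32194 wholly below.

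Of the genes lower at 29°C, 3 had values of their own. CR31451 (*mimi*), a lncRNA at chr3R:19809225-19810287 on the plus strand with no overlapping gene, was the most abundant of all CR genes that changed without a coding neighbour. Its signal ran from 3420 through 4087 to 4926 at 18°C, from 4358 through 4588 to 5165 at 25°C, and from 2792 through 3377 to 3917 at 29°C. The 25°C libraries all lay above those of 29°C, and 18°C lay across both. *mimi* was 1.39-fold lower at 29°C than at 25°C (-0.47 ± 0.09, limma adjusted p = 0.00358) and 1.24-fold lower than at 18°C (-0.31 ± 0.09, adjusted p = 0.00900), lower at 6 of 6 time points in each. With values divided by library size the difference to 18°C was -0.17 and did not pass (adjusted p = 0.232), and with no intensity trend the call against 25°C was lost (adjusted p = 0.0625).

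CR43452, a lncRNA at chr3R:16503905-16504801 on the plus strand with no overlapping gene, ran from 44.5 through 54.2 to 84.3 at 18°C, from 24.3 through 43.3 to 63.8 at 25°C, and from 20.1 through 31.1 to 44.6 at 29°C. The highest 29°C library barely reached the lowest of 18°C. The level at 29°C was 1.91-fold lower than at 18°C (-0.93 ± 0.27, limma adjusted p = 0.00996). CR44127, a scarce lncRNA at chr2R:1854902-1855219 on the minus strand, ran from 1.96 through 9.71 to 26.1, from 1.38 through 10.4 to 15.2, and from 0 through 0.772 to 7.38 at the 3 temperatures in rising order. At 29°C 5 of its 6 libraries held 3 reads or fewer. Its difference was -2.16 ± 0.72 (adjusted p = 0.0272), from -1.10 with a pseudocount of 5 to -3.14 with 0.25. CR44127 reached a signal of 10 in 3 libraries at 18°C, 3 at 25°C and 0 at 29°C. It thus passed the level for testing only through the temperatures at which it was higher. The call was lost, with adjusted p between 0.0551 and 0.0779, without the ZT3, ZT15 or ZT23 library of 18°C or the ZT7, ZT11 or ZT19 library of 29°C.

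The remaining 4 called genes have values close to those of a coding neighbour. For CR43836, CR42491 and CR44097 the values differed from the neighbour's by at most 0.474%, so their temperature differences are those of the shared reads. CR32194 differed from CG34253 by 7.0%, and whether its temperature differences are only those of shared reads was not tested. CR43836, annotated over chrX:8866941-8943024 on the minus strand, had the widest fall of all CR genes. It ran from 126 through 226 to 408 at 18°C, from 34.5 through 56.5 to 114 at 25°C, and from 24.5 through 32.6 to 43.2 at 29°C. All 18°C libraries lay above all others. At 18°C the level was 3.92-fold that of 25°C (1.97 ± 0.27, limma adjusted p = 6.8e-06) and 6.85-fold that of 29°C (29°C against 18°C -2.78 ± 0.27, adjusted p = 4.6e-09). CG10962, with the same 3′ end, gave -2.78 ± 0.27 as well (adjusted p = 4.8e-09).

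CR42491, at chrX:656648-657843 on the minus strand, followed *RpL22*. It ran from 5846 through 6884 to 7465 at 18°C, from 7292 through 8302 to 9652 at 25°C, and from 8894 through 10241 to 12442 at 29°C. It was the only CR gene that passed in all 3 comparisons, and its level was 1.57-fold higher at 29°C than at 18°C (0.65 ± 0.09, limma adjusted p = 3.1e-06). The steps to 25°C, of -0.30 ± 0.09 from 18°C and 0.35 ± 0.09 from 29°C, passed narrowly (adjusted p = 0.0300 and 0.0374). The former call was lost without the ZT3 or ZT11 library of 18°C or the ZT3, ZT19 or ZT23 library of 25°C, and the latter without any of 8 libraries, those of 25°C from ZT3 to ZT19 and of 29°C from ZT15 to ZT23. Both were also lost with no filter on low values and with no intensity trend (adjusted p over all these losses between 0.0548 and 0.182). *RpL22* itself had means of 6739 ± 681, 8283 ± 858 and 10566 ± 1287.

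CR32194 (chr3L:18078405-18080158, minus strand) ran from 143 through 152 to 165 at 18°C, from 73.7 through 93.2 to 128 at 25°C, and from 64.3 through 90.2 to 138 at 29°C. All 18°C libraries lay above the others, by 1.58-fold over 25°C (0.66 ± 0.17, limma adjusted p = 0.00960) and 1.63-fold over 29°C (adjusted p = 0.00249). Its neighbour CG34253 was likewise lower at 29°C than at 18°C (-0.85 ± 0.16, adjusted p = 0.000173). CR44097 (chr3R:19880113-19880814, plus strand), which ends beside CG6000 and lies across the heat shock gene *Hsp68*, ran from 106 to 123 at 18°C, from 68.7 to 111 at 25°C and from 71.1 to 107 at 29°C. Its 18°C level was higher by 0.49 ± 0.16 than at 25°C (adjusted p = 0.0435), and the 29°C to 18°C difference was -0.48 ± 0.16 (adjusted p = 0.0284). The former call was lost in 15 of 30 alternatives (adjusted p between 0.0501 and 0.174): both other scalings, array weights, a time-point block, a fit of only the 2 temperatures, and without any 18°C library except ZT23, the ZT7, ZT11, ZT15 or ZT23 library of 25°C, or the ZT11 library of 29°C. The latter was lost, with adjusted p between 0.0511 and 0.142, after division by library size and without the ZT7 library of 18°C or the ZT3, ZT11, ZT15 or ZT23 library of 29°C. No called difference of a CR gene named here changed its sign in any alternative.

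Without the 10 genes whose values lie within 10% of another gene, a count added after the data were seen, 1 of the 35 remaining genes (2.86%, beside 11.6% of all rows) passed between 18°C and 25°C (CR44107), 2 (5.71%, beside 2.27%) between 29°C and 25°C (CR31781 and CR31451) and 10 (28.6%, beside 24%) between 29°C and 18°C. The drop from 5 to 1 in the colder comparison comes from CR43836, CR32194, CR44097 and CR42491.

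For the 31 genes that did not pass between 29°C and 18°C the log2 differences lay between -0.84 and 1.2. How small a difference could be seen depended on the level. The SE of that difference had a median of 0.60 for the 24 rows with a mean signal up to 20, and of 0.15 for the 14 rows above 100. The hairpin RNAs CR32205 and CR32207 had 29°C to 18°C differences of 0.73 ± 0.57 and 0.29 ± 0.71, and *cherub* and *marge* of 0.39 ± 0.52 and 0.09 ± 0.44 (limma adjusted p between 0.402 and 0.907). Differences of this size were not detectable at these levels.

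The level rule divided genes of similar signal. Just inside it, with 6 libraries at 10 or more, were CR32205, CR43241, CR43283, CR43653, CR43944 and CR44127, with mean signals from 6.33 to 9.32. Just outside, with 5, were CR43259, CR43463, CR43958 and CR44089, with means from 5.22 to 8.83.

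Time of day was examined in the same libraries by fitting cosine and sine terms with a period of 24 h. No CR gene passed the test for a rhythm common to the 3 temperatures, beside 0.488% of all rows (49 of 10031), among them the clock gene *vri* (limma adjusted p = 0.000124) and a row of *tim* (adjusted p = 0.000196). At an unadjusted p under 0.05 there were 3 of 54 CR rows, beside 8.66% of all rows. Likewise 0 CR rows passed for a rhythm within a temperature, beside 0.12%, 0.169% and 0.11% of all rows in the order 18°C, 25°C, 29°C. At an unadjusted p under 0.05 these tests gave 6, 2 and 2 CR rows, beside 7.55%, 8.46% and 4.74% of all rows. For a difference in rhythm between temperatures 0 CR rows and 0% of all rows passed in limma, with 5 CR rows at an unadjusted p under 0.05, beside 4.91% of all rows.

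**Figure D5:**
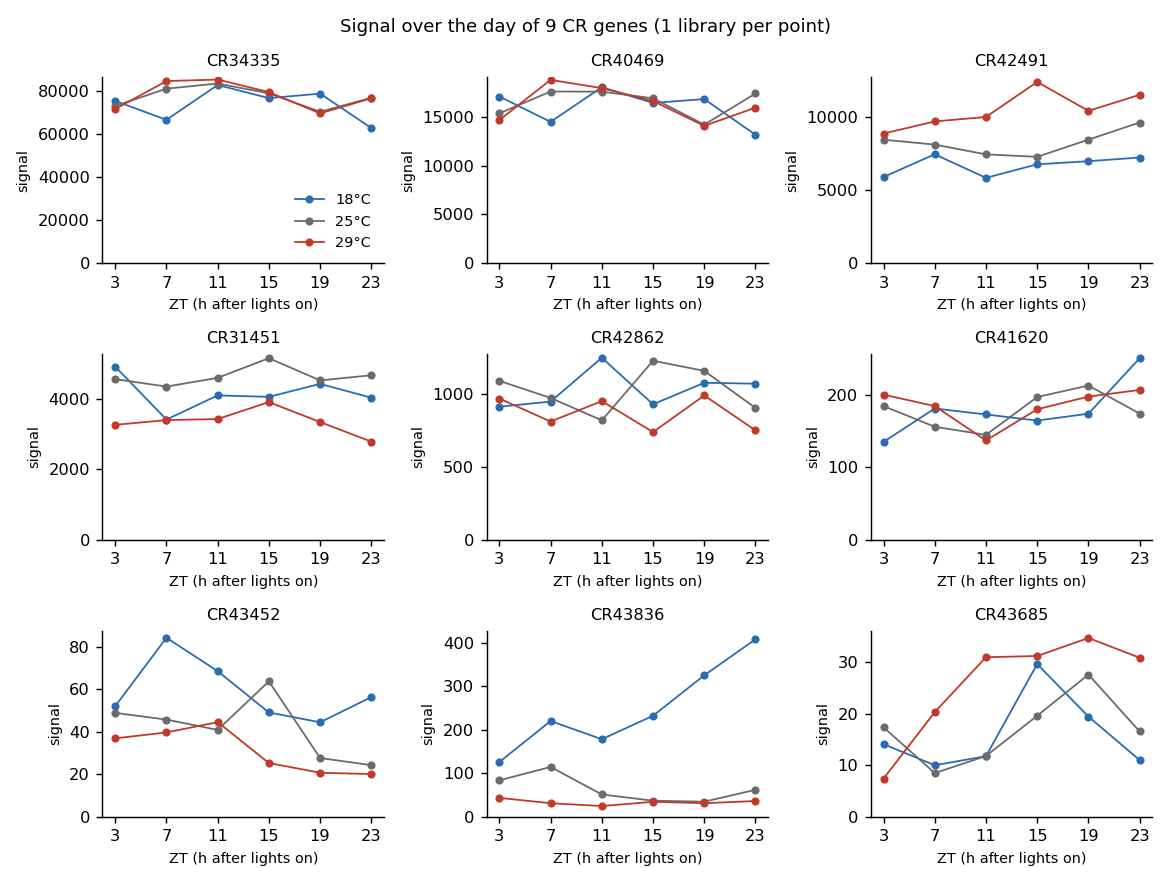
Signal at each time point (1 library per point, axes from 0; blue 18°C, grey 25°C, red 29°C) for the 6 most abundant CR genes and for CR43452, CR43836 and CR43685, which had low unadjusted p-values. Among the 6 abundant genes CR41620 varies most, from 135 at ZT3 to 250 at ZT23 at 18°C, and none of the 9 passed a rhythm test after adjustment.

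Among the 13 CR genes with a mean signal above 100, the highest time point, averaged over the temperatures, exceeded the lowest by between 1.16-fold (CR34335) and 2.00-fold (CR43836), with a median of 1.23-fold. The 3 genes that follow were chosen after their values were seen. CR43452 had the lowest p for a common rhythm (unadjusted 0.0103, limma adjusted 0.370), with a mean of 56.6 at ZT7 and 30.9 at ZT19. CR43685, a lncRNA on 3R, came next (unadjusted p = 0.0204, limma adjusted 0.451), with 12.9 at ZT7 and 27.3 at ZT19. The shared reads of CR43836 and CG10962 gave the lowest p for a rhythm at 25°C (unadjusted 0.00231, limma adjusted 0.251) and for a difference between temperatures (unadjusted 0.00512, limma adjusted 0.878). At 18°C they were lowest at ZT3 (126) and highest at ZT23 (408), and at 25°C lowest at ZT19 (34.5) and highest at ZT7 (114). Each of these points is a single library.

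Noncoding RNA genes that carry a name in place of a CR number were counted in the same way from a list. Of 26 in the table, 16 were tested, and 7 of these passed for 29°C against 18°C, with 5 of them raised and 2 lowered in the warm libraries. By rows, 10 of 24 passed, beside 24% of all tested rows (10.6% higher and 13.4% lower), and *roX1* and *roX2* give several nearly identical rows among them. *snRNA:7SK*, the RNA that holds the elongation factor P-TEFb inactive, rose from a mean of 161 at 18°C through 234 at 25°C to 364 at 29°C and passed in all 3 comparisons (29°C against 18°C 1.17 ± 0.15, limma adjusted p = 4.5e-07). *roX1* and *roX2* were higher at 29°C by 0.89 ± 0.24 and 3.34 ± 0.46 (adjusted p = 0.00577 and 1.9e-06). A row of *Hsromega*, the heat-inducible nuclear RNA, with a mean signal of 21.2, was higher by 3.09 ± 0.56 (adjusted p = 0.000109), whereas its most abundant row differed by -0.05 ± 0.17 (adjusted p = 0.883). *sphinx* and *pncr016:2R* were lower by 0.61 and 0.49 on the log2 scale (adjusted p = 0.0119 in each). No gene of the list passed a rhythm test.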

How the data were processed

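The authors deposited a single table of transcripts by libraries, whose values are in a unit called signal here: read numbers divided by 1 constant per library (between 97.2% and 97.9% of nonzero values are whole multiples of the commonest one, within 0.01). The counting rule is not given in the sources used here; the submitters' processing notes name dm3, Bowtie2, TopHat and Cufflinks. The values are a scaled signal and the read numbers given here are estimates from it, so a log-scale model was used and no count model.

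Of 29561 rows, 667 without values and 541 without a gene symbol that repeat a named row were left out. Identical rows of a gene were then taken once, which left 17520 rows. The 10031 rows with a signal of at least 10 in at least 6 libraries were tested with limma 3.58.1 in R 4.3.3. The test was run on log2(signal + 1), with an intensity trend and Benjamini-Hochberg adjustment over all 10031 rows (threshold 0.05). Fold changes on this scale understate changes of low rows. Rhythm tests were F-tests of a cosine and a sine of 24 h. The fitting script was tested on simulated data. Positions are dm3, counted from 1, and names and biotypes are those of RefSeq. Depth is the summed signal over the worth of 1 read; read floors cover counting error only. The time point ZT19 is 19 h in descriptions and 18 h in titles.

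The genes and lists were chosen with earlier results of these data known. Named were, per temperature comparison, up to 8 higher and 8 lower genes past the threshold, and the 6 of highest mean signal. Alternatives were 2 pseudocounts, 2 filters, 2 scalings, 2 ways of treating repeated rows, array weights, no trend, a time-point block, a fit of 2 temperatures, 18 h in place of 19 h and each library left out. For genes with 2 rows the row of higher mean was described.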

Additional observations from a re-analysis of the deposited data

Results flagged for a closer look

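In the 18 named CR genes, 54 groups of 6 libraries were looked at for a library far from the others (Dixon's ratio of its gap to the whole range, above its critical value), and chance alone gives about 1 in 20. In 1 group a library stood apart: CR44137, the antisense RNA across *Csk*, at 18°C, where the ZT23 library had a signal of 12.4, the next library 4.34 and the lowest 0 (ratio 0.649). Apart from that library the 18°C signals of CR44137 stayed below all 6 of 29°C. No difference in rhythm between temperatures passed the test for any CR gene.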

How the results depend on the processing

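The counts of CR rows past the threshold moved by over 1.5 times in few alternatives. Leaving out 1 library gave 3 to 6 rows for 18°C against 25°C (3 without the ZT3 or ZT11 library of 18°C or the ZT23 library of 25°C), 2 to 3 for 29°C against 25°C and 12 to 16 for 29°C against 18°C. With no intensity trend 1 row passed for 29°C against 25°C, with a mean signal of at least 20 required 9 passed for 29°C against 18°C, where 30 CR rows were left to test, and without the genes within 10% of another gene 1 passed for 18°C against 25°C. The cause was not tested in the other cases. Rhythm counts were 0 in every alternative. With time point as a replicate block 4, 3 and 16 rows passed for 18°C against 25°C, 29°C against 25°C and 29°C against 18°C. Over all tested rows, correlations between same-time libraries ran from -0.056 to 0.110, and 2 of 18 exceeded 0.1. Such values cannot exclude that same-time libraries vary together in some genes. Division by library size moved the median of all rows between 29°C and 18°C from 0.04 to 0.18 and that between 18°C and 25°C from -0.01 to -0.15; higher calls were then 2 of 5 CR rows for 18°C against 25°C, in place of 3 of 5, and median-of-ratios scaling gave 2 of 4.

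Of 22 called differences of named genes, 14 kept their call in every alternative and 0 changed sign. Sign changes occurred only in 8 differences near 0 that never passed: CR34335 29°C against 25°C (left-out libraries -0.018 to 0.041; median-of-ratios -0.0074), CR40469 (18°C against 25°C -0.091 to 0.0065, 29°C against 25°C -0.060 to 0.024, 29°C against 18°C -0.024 to 0.073), CR42862 18°C against 25°C (-0.054 to 0.062; library size -0.13, median-of-ratios -0.0075) and CR41620 (-0.10 to 0.076, -0.0087 to 0.13 and -0.028 to 0.15 in the same order; array weights 0.021 for 18°C against 25°C).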

Other observations

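CR genes below the level rule were examined in the fit without a filter on low values, where 260 further CR rows of 248 genes had a signal above 0. Between 29°C and 18°C 19 of these rows (7.31%) passed, from 17 genes, 11 higher and 6 lower at 29°C, beside 15.9% of all 14981 rows. All rows include those above the level rule, so the shares compare rows of unlike level. The genes named here were chosen after their values were seen. CR43463 had 0 to 2.86 at 18°C, 5.50 to 33.2 at 25°C and 7.44 to 13.6 at 29°C, so that all 18°C libraries lay below the rest (18°C against 25°C -2.96, limma adjusted p = 0.000582). CR44089 went the other way, with 2.0 to 17.6 at 18°C, 0 to 1.38 at 25°C and 0.646 to 10.7 at 29°C (18°C against 25°C 2.74, adjusted p = 0.00176). CR43943 had at most 1.02 at 18°C and 4.46 to 13.9 at 29°C (29°C against 18°C 2.97, adjusted p = 7.0e-05). All of these stand for few reads per library, and the size of each difference depends on the pseudocount.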
